A study of Mus musculus with 8 samples.

Results

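The Zic family genes are described here through NFI binding at 4 members, Zic1 and Zic4 on mouse chromosome 9 and Zic2 and Zic5 on chromosome 14. A deposited peak was counted when it overlapped the gene body of a member, or when the nearest protein-coding transcription start site (TSS) within 100 kb belonged to one. Of 139188 peaks in 6 lists, 67 met this rule, and they fell into 34 of the 46070 regions formed by merging peaks that overlapped by at least 1 bp. The series is a chromatin immunoprecipitation and sequencing (ChIP-seq) study of 3 nuclear factor I (NFI) proteins, NFIA, NFIB and NFIX, bound to chromatin of granule neuron progenitors taken from mouse cerebellum at postnatal day 7. Each factor had 1 library from mice of a Mixed background, labelled as close to outbred CD1, and 1 from CD1 mice, the strain that the series text alone names. The 2 input samples were not analysed here. Antibodies were from Abcam for NFIA, from Sigma Aldrich for NFIX, and for NFIB from Novus Biologicals in the sample labels and Sigma in the series text, a difference not settled here. No allele, transgene or treatment is named for any library. Whether a library came from 1 animal or a pool is not stated, and peak positions carry no RNA level against which the labelled cell type could be checked.

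Zic proteins are zinc finger transcription factors related to the Gli effectors of Sonic hedgehog signalling. Zic1 and Zic2 are expressed in granule neuron progenitors and persist in granule neurons, and loss of Zic1 in mice gives a small cerebellum. In humans, deletions spanning ZIC1 and ZIC4 have been linked to Dandy-Walker malformation, and mutations of ZIC2 cause holoprosencephaly. In mouse, loss of Zic5 disturbs neural tube closure and neural crest. NFI proteins are dimeric DNA-binding factors that recognise TTGGC arms, and in developing granule neurons they are known as regulators of the genes of differentiation. The members lie in head-to-head pairs, so a site between a pair cannot be given to 1 of its genes.

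Sequence could be read at start sites and in exons. RefSeq promoters of build GRCm38.p6, which run from 250 bases before to 50 after a start, were matched for 3 of the 4 members. These are Zic1 (chr9:91365719-91366018, minus strand), Zic4 (chr9:91368722-91369021, plus strand) and Zic5 (chr14:122465609-122465908, minus strand). They are shown 5′ to 3′ along the gene because peaks of 3, 1 and 4 libraries overlap them, with summits inside the Zic1 window alone. Capitals mark each NFI arm, TTGGC or its complement GCCAA.
Zic1: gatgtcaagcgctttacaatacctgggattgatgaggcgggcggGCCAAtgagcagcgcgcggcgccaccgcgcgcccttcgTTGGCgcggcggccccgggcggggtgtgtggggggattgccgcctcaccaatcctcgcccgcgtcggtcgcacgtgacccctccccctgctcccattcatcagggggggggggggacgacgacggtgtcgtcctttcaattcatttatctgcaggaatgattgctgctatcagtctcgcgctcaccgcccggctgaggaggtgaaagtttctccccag
Zic4: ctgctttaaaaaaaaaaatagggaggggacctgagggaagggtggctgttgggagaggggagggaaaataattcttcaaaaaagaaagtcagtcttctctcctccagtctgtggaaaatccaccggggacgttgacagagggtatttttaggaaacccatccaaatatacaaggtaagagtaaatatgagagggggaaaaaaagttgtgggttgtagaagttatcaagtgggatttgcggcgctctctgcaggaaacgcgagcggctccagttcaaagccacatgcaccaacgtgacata
Zic5: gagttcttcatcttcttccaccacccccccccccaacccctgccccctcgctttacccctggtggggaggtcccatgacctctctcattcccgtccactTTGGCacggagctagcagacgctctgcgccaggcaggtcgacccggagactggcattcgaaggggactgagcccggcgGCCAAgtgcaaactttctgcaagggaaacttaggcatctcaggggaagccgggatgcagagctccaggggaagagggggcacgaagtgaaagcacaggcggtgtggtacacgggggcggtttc

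The Zic1 promoter held 2 arms, at positions -206 to -202 and -168 to -164 from the RefSeq start, and the first of them is also part of the letters CCAAT. Zic5 held 2 arms, at -151 to -147 and -73 to -69, and its first arm continues as the longer NFI element TTGGCA. The Zic4 window held no arm. At least 1 arm, searched on both strands, was found in 46.7% of the 32851 RefSeq promoters of this length, and TTGGCA in 14.1%. The full NFI palindrome, TTGGC and GCCAA with any 5 bases between them, was in 0 of the 3 member promoters and in 0.0365% of all. E-boxes CAGCTG and CAGATG and the Zic element CAGCAGG were likewise in 0 of 3, against 16.3%, 17.2% and 10.5% of all promoters. Base composition differed along the family: the share of G and C was 65.3% in the Zic1 window, 62.7% in Zic5 and 46% in Zic4, beside a median of 52.7% over all promoters.

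None of the 34 Zic regions held a peak of all 6 libraries, whereas 13.2% of all regions did. A count of 0 of 34 allows a share of up to 8.82% when the limit is set at 3 counts, and of up to 10.2% by the 95% Wilson interval. These limits, like the Wilson intervals below, cover counting error only and treat regions as independent. Without NfiX CD1, the shortest list, 1 of the 34 Zic regions (2.94%) was common to the remaining libraries. The share of all regions common to those libraries is not given here. Of the Zic regions 18 were seen in 1 library, 8 in 2, 3 in 3, 4 in 4 and 1 in 5. Single-library regions were therefore 52.9% of Zic regions (95% Wilson interval 36.7 to 68.5), beside 31.9% of all regions. NfiB peaks were 50 of the 67 Zic peaks. The NfiB lists were also the longest, with 36431 peaks in CD1 and 33283 in Mixed, of 139188 in all. NfiB peaks alone formed 24 of the 34 regions, a share of 70.6% (95% Wilson interval 53.8 to 83.2), where they formed 35.7% of all regions. All 3 factors met in 5 Zic regions (14.7%, interval 6.45 to 30.1), against 37.5% of all regions. Of the granule lineage factors named below, Pax6 and Atoh1 also had most of their regions from NfiB peaks alone, while Neurod1 and Zbtb18 did not. No test of the family against other genes was made, so these shares describe the loci.

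**Figure D1:**
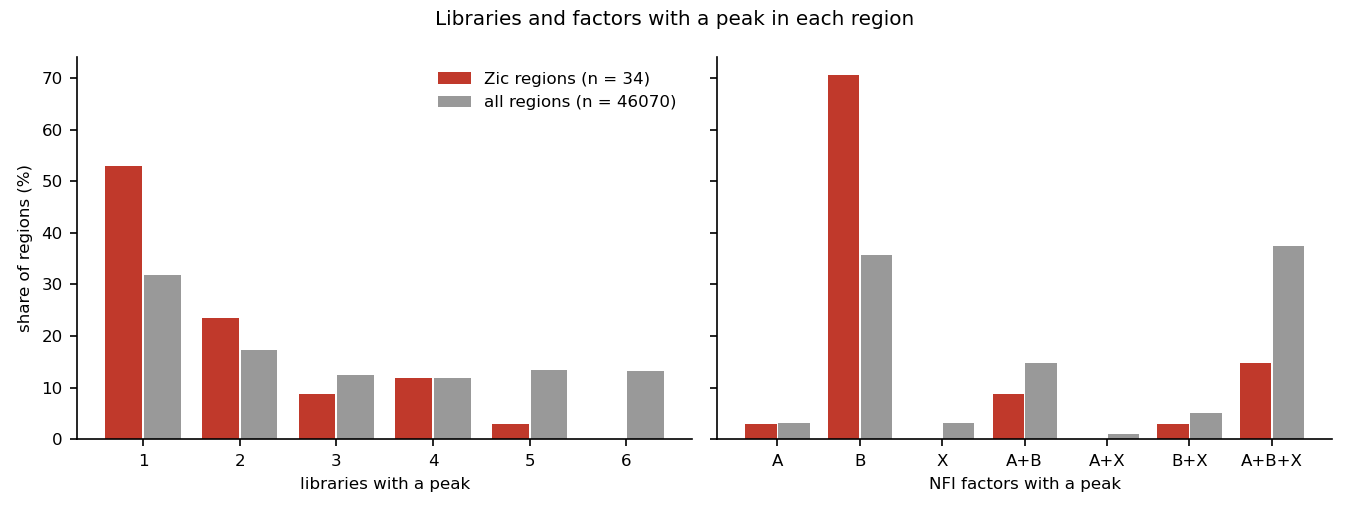
Share of regions (%, vertical axis) by the number of libraries (left) or the set of NFI factors (right) with a peak. Red bars are the 34 Zic regions and grey bars all 46070 regions. Zic regions stand higher for 1 library (52.9% against 31.9%) and for NFIB alone (70.6% against 35.7%), and there is no Zic bar at 6 libraries.

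By library, Zic regions numbered 9 in NfiA Mixed and 1 in NfiA CD1. Both NfiB libraries had 24. NfiX Mixed had 5 and NfiX CD1 had 1. NFIB peaks were thus as frequent in Mixed as in CD1, while the NfiA CD1 and NfiX CD1 lists gave a single region each. Over the whole series NfiA lists touched 23022 regions in Mixed and 16590 in CD1, NfiB lists 32855 and 36050, and NfiX lists 20934 and 7353. The mean difference in Zic regions, Mixed minus CD1, was 4 ± 4 (SD, n = 3 factors), with 8 for NFIA, 0 for NFIB and 4 for NFIX. It did not pass (exact two-sided sign-flip permutation p = 0.5), and 3 pairs cannot go below p = 0.25. The labels do not tie libraries to individual mice, so this spread may be technical. The Mixed list was the longer one for NFIA and for NFIX, and the part of list length was not tested. Lists held to 7497 peaks left 1 Zic region, too few for a comparison.

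Zic1 and Zic4 form the larger cluster. Zic1, on the minus strand, spans 91358058 to 91365810 of chromosome 9 (mm10), and Zic4, on the plus strand, spans 91362413 to 91389348 and overlaps it. Their 26 regions extended over 105.82 kb, from downstream of Zic1 to far beyond the 3′ end of Zic4, and 14 touched a gene body. By nearest TSS, 25 belonged to Zic4 and 1 to Zic1. This split rests on the annotation, since GENCODE gives Zic4 12 distinct start sites, the outermost inside Zic1. With the basic GENCODE transcripts alone, tried once the values were known, 18 went to Zic4 and 8 to Zic1. No other protein-coding gene lies within the cluster: the neighbours are Tbc1d2b, 1087 kb from Zic1, and Plscr5, 804 kb from Zic4.

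**Figure D2:**
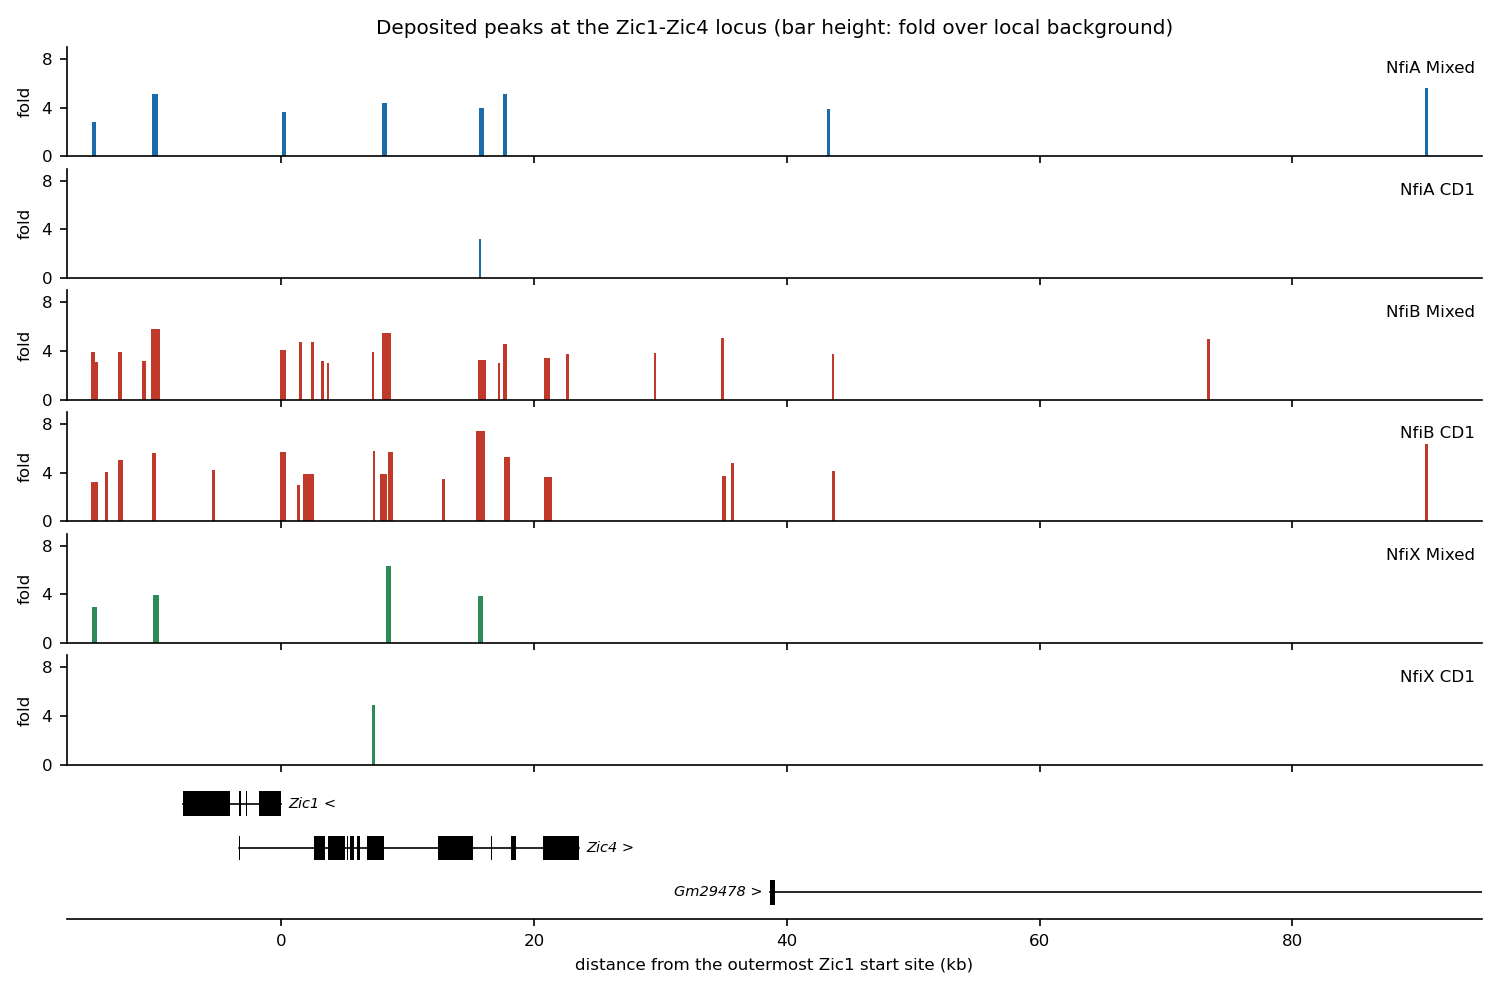
Peaks of the 6 libraries at the Zic1 and Zic4 locus, by distance from the outermost Zic1 start (kb, horizontal axis), with fold over local background as bar height and exons of all transcripts as black boxes (arrowheads give the strand). NfiB rows hold 20 regions in Mixed and 18 in CD1, whereas NfiA CD1 and NfiX CD1 hold 1 each, at different places.

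At the Zic1 start, a region at 91365690 to 91366193 had its strongest summit 80 bp upstream of the gene, and also lay in an intron of the longest Zic4 model. Fold over local background was 3.66 in NfiA Mixed, 4.10 in NfiB Mixed and 5.73 in NfiB CD1, and NfiA CD1, NfiX Mixed and NfiX CD1 had no peak there. Folds are the authors' own. Each was turned into a rank inside its own list, as a percentile from 0 (weakest) to 100 (strongest). These 3 peaks stood at percentiles 10.6, 23.4 and 49.7 of their lists. NfiB summits lay 58 and 80 bp before the outermost Zic1 start, inside the printed promoter, while the NfiA Mixed summit lay 218 bp before it.

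The region seen in most libraries lay in an intron of Zic4, at 91381221 to 91381987, 877 bp from a Zic4 start site. Its folds were 3.99 in NfiA Mixed and 3.22 in NfiA CD1. NfiB had 3.29 in Mixed and 7.40 in CD1, and NfiX Mixed had 3.86. NfiX CD1 was the library without a peak. Summits of the 5 libraries lay within 143 bp. The NfiB Mixed peak held 60 fragments at its summit and stood at percentile 7.995, while the NfiB CD1 peak held 93 and stood at percentile 68.8. Local background there was 17.5 fragments in NfiB Mixed and 11.7 in NfiB CD1. Another NfiX Mixed peak in Zic4, in the region at 91373615 to 91374621, was the strongest NFIX peak of the family (fold 6.35, percentile 55.9). Folds in that region were 4.40 in NfiA Mixed, 5.52 in NfiB Mixed and 5.74 at the stronger of the NfiB CD1 peaks. Its summits spread over 471 bp. The NfiX Mixed summit lay in an intron, at 91374338, and the NfiB Mixed summit, at 91373888, in an exon that ends at 91373923.

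Some Zic regions lay outside the protein-coding genes. At 91355456 to 91356172, downstream of Zic1 and 6.63 kb before the outermost Zic4 start, 4 libraries had summits within 27 bp of each other. Folds there were 5.17 in NfiA Mixed, 5.83 in NfiB Mixed, 5.59 in NfiB CD1 and 3.94 in NfiX Mixed. A region at 91350744 to 91351323 had peaks in the same libraries with folds of 2.83 to 3.89, and overlapped the start of the noncoding gene A730094K22Rik. Its strongest NfiB Mixed summit lay in the exon of that gene, which ends at 91350953, and the other summits lay upstream of it. On the far side, the most distant region lay 73.96 kb from a Zic4 start, in an intron of the noncoding gene Gm29478 (91456261 to 91456564). It had folds of 5.61 in NfiA Mixed and 6.36 in NfiB CD1, over local backgrounds of 1.5 and 1.67 fragments, and had the highest mean percentile of the Zic regions, 55.0.

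The single NfiX CD1 peak of the family lay apart from the NfiX Mixed peaks, in a noncoding exon of Zic4 (91372943 to 91373232). It had a fold of 4.94 (percentile 25.7), beside 3.95 in NfiB Mixed and 5.76 in NfiB CD1, and NfiX Mixed had no peak in that region. An NFI arm lay 5 bases from its summit, a match that 47.8% of all exonic windows of this size also hold. The site near the summit is shown on the plus strand of mm10 at chr9:91373082-91373111, read from a GENCODE transcript, with the arm in capitals.
Zic4 exon site: gtttgacatgtaTTGGCttccatgaaagaa

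Zic5 and Zic2 stand 9.758 kb apart on chromosome 14, Zic5 on the minus strand (122456795 to 122465677) and Zic2 on the plus strand (122475435 to 122479852). They had 8 regions over 18.979 kb, 7 of them nearest to Zic2 and 1 to Zic5. The 7 Zic2 regions held NfiB peaks alone, and 6 of the 8 regions of this locus were seen in 1 library. A single Zic2 region was seen in both NfiB libraries, at 122474030 to 122474492, 1.335 kb upstream in an intron of the divergent noncoding gene 2610035F20Rik. Its folds were 4.02 in NfiB Mixed (percentile 20.1) and 2.24 in NfiB CD1 (percentile 0.601). Near the Zic2 start, an NfiB Mixed peak 282 bp upstream had a fold of 2.44 over a local background of 18.3 fragments, and NfiB CD1 had none. Its summit lay in a noncoding exon of 2610035F20Rik (122474903 to 122475199), so it cannot be given to Zic2 alone. The other Zic2 regions were an intronic one, one in coding sequence 1.01 kb from an internal start, and 3 beyond the 3′ end, all with folds of 3.08 to 4.30.

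**Figure D3:**
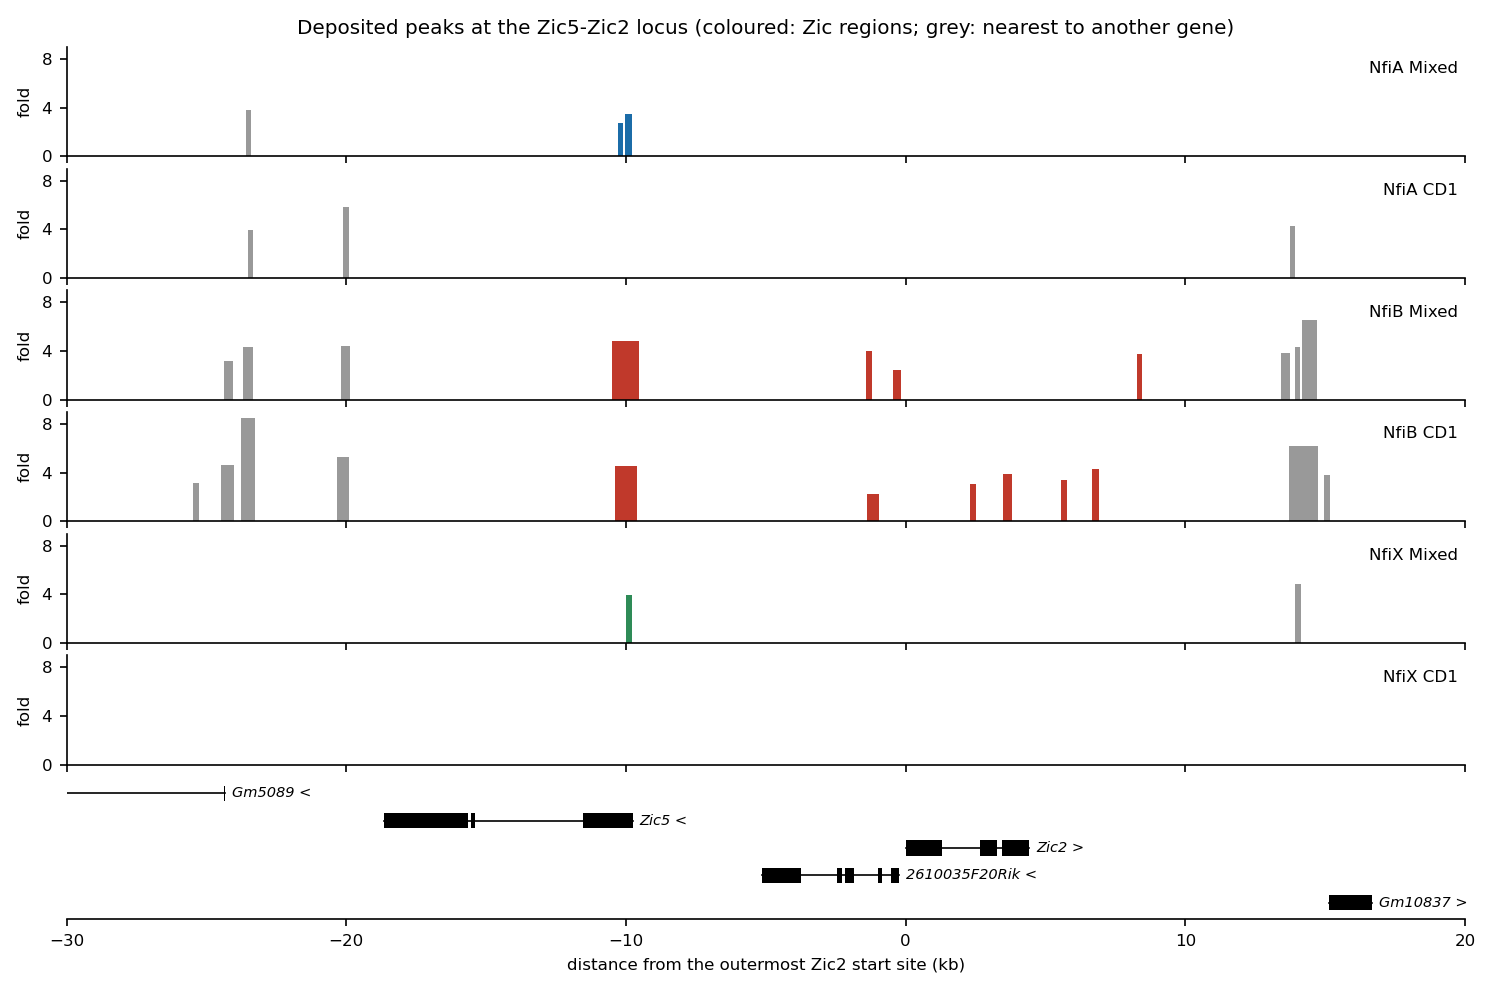
Peaks at the Zic5 and Zic2 locus by distance from the outermost Zic2 start (kb, horizontal axis), with fold over local background as bar height and exons as black boxes. Coloured bars are Zic regions and grey bars are peaks nearest to Gm5089 or Gm10837. The Zic5 start is the one place here with Zic peaks of 4 libraries.

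In contrast to Zic2, the Zic5 start was shared. The region at 122464919 to 122465916 covered the 5′ part of the first exon and the printed promoter, and its strongest summit fell in the untranslated part of the exon, 125 bp inside the gene. NfiA Mixed had 2 peaks there, with folds of 2.74 and 3.52. NfiB had 4.83 in Mixed and 4.53 in CD1, and NfiX Mixed had 3.93. Their percentiles were low, from 1.22 to 37.5, although the NfiB Mixed summit held 72 fragments. The strongest NfiB Mixed and NfiA Mixed summits lay 2 and 8 bases from an NFI element that shares 2 bases with the E-box CAGCTG. The NfiX Mixed summit lay 39 bases from it, and the window around the NfiB CD1 summit held none of the motifs searched. This site is shown on the plus strand of mm10 at chr14:122465544-122465573, with the joined element and E-box in capitals.
Zic5 exon site: agccgtgtgaTTGGCAGCTGcctcggctgc

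Windows of 50 bases to each side of the summit could be read from transcript sequences for 15 Zic peaks in 8 regions. TTGGCA was in 4 of these windows, all at Zic5, beside 24.3% of the 8082 exonic windows of the series. A single arm was in 5 of the 15 windows (33.3%), against 47.8% of all. The palindrome was in 0 of 15 windows and in 1.52% of all. The E-box CAGCTG was in 3 windows, again at Zic5 (18.0% of all windows), and the Zic element CAGCAGG was in 1, in an untranslated exon part of Zic1 (7.67% of all). With so few windows, from overlapping peaks, these shares describe exons alone and leave introns and intergenic regions unread.

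Most Zic peaks were weak in fold. Across the 67 peaks the median fold was 3.93, in a range of 2.24 to 7.40, beside a median of 5.71 over all peaks. Zic peaks had a median percentile of 17.2, and 7 of 67 stood above the median of their own list. Library medians were 16.1 in NfiA Mixed and 1.82 in NfiA CD1, 18.2 in NfiB Mixed and 20.4 in NfiB CD1, and 8.69 in NfiX Mixed and 25.7 in NfiX CD1. The values of NfiA CD1 and NfiX CD1 are those of single peaks. When each list was held to its 7497 strongest peaks, the length of the NfiX CD1 list, 1 Zic peak was left, the NfiX CD1 peak itself.

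Fold is a ratio, and its parts ranked differently. Fragments at the summit and the local background were recovered from the deposited fold and p-value, as described under the processing. Zic summits held a median of 23 fragments, against 25 over all peaks, at a median percentile of 40.8. Local background was a median of 5.07 fragments, against 3.43 over all peaks, at a median percentile of 67.1. It exceeded the 90th percentile of the list in 22 of the 67 peaks (32.8%). The part that background plays in the low folds was not tested.

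**Figure D4:**
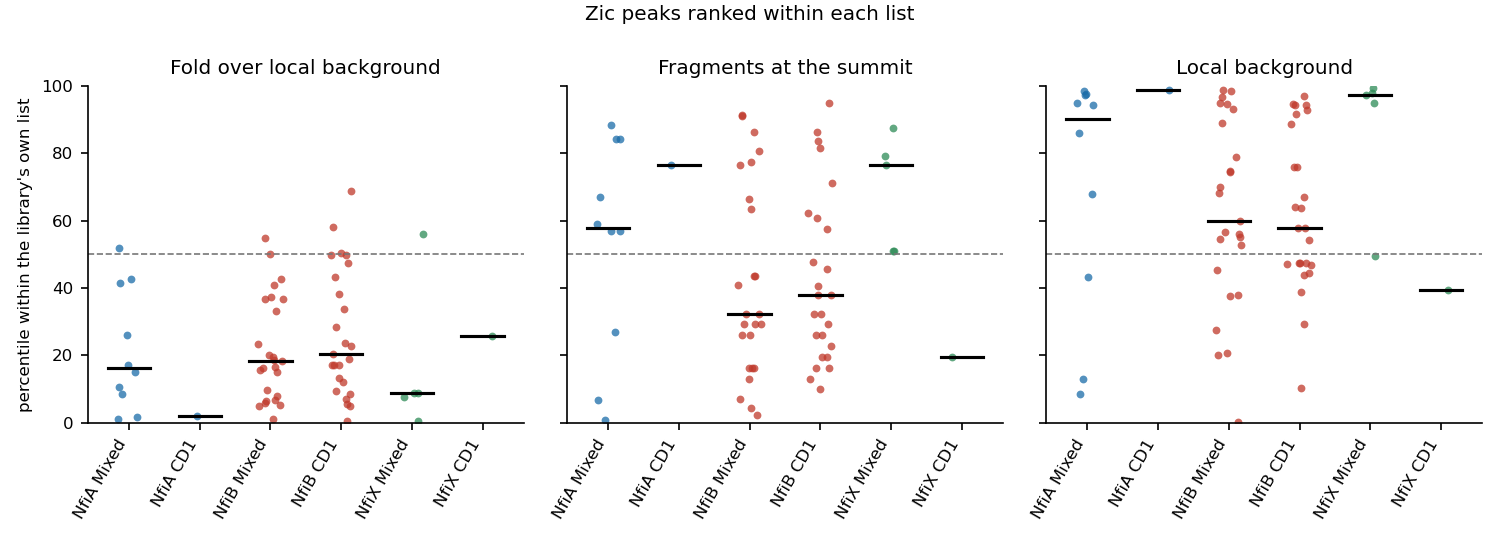
Percentile of each Zic peak within its own list (vertical axis, 50 is the median peak, dashed) for fold, fragments at the summit and local background, by library. Points are the 67 peaks and black bars are library medians. Most points are under 50 for fold, with medians of 1.82 to 25.7, while local background medians are 39.5 to 98.7. The ends of both ranges come from NfiA CD1 and NfiX CD1, which have 1 Zic peak each.

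The ranks are also given by distance to a start site, with no test. The 21 peaks within 1 kb of a TSS had a median background percentile of 94.4 and a median fold percentile of 8.69. All 11024 peaks of the series within 1 kb of a TSS had medians of 88.7 and 16.5. The 46 Zic peaks farther away had a median background percentile of 55.6 and a median fold percentile of 19.7. In the series the 128164 distal peaks had 47.1 and 52.2. Zic medians of fold were below those of the series in either class, with the wider gap among distal peaks. Regions within 1 kb of a TSS were 10 of the 34 Zic regions (29.4%), against 10.1% of all regions, and the distance limit of the rule itself favours near regions. The 12 start sites of Zic4 in GENCODE, some of them internal, also enter this class, for regions and for peaks.

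Recurrence between the backgrounds could be described for NFIB. Of the 25 NfiB Mixed peaks, 16 lay in a region with an NfiB CD1 peak, and the reverse count was the same, 64.0% each (95% Wilson interval 44.5 to 79.8). Over the whole lists these shares were 79.7% and 72.6%. For NFIA, 1 of 10 Mixed peaks lay in a region with a CD1 peak, against 60.1% of the whole Mixed list, and the single CD1 peak lay in a region with a Mixed peak. For NFIX, 0 of 5 Mixed peaks did so, against 33.2% of the whole list, and the single CD1 peak did not, against 93.2%.

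Set against other genes under the same rule, Zic4 was densely covered. It had 26 regions, more than 99.5% of the 21924 protein-coding genes, and 13 lay in its 26.9 kb gene body, or 4.83 per 10 kb. This density ranked 13 among the 18676 genes of 4 kb or more, and Zic2, with 4.53 per 10 kb, ranked 20. The Zic2 value rests on 2 body regions in a 4.418 kb gene, both with an NfiB CD1 peak alone, so without that library the density is 0. The 26 Zic4 regions are all those of its locus, where 17 held NfiB peaks alone and 12 were seen in 1 library. Apart from Zic1, no other protein-coding gene lies within 100 kb to take a share of them. Zic1 had 2 regions, both in its body, with 71.6% of genes having fewer, and Zic5 had 1, with 52.5% having fewer. At least 1 region was found at 47.5% of genes and at 4 of the 4 members. A common region was found at 12.9% of genes and at 0 of the 4 members. Genes with many regions usually had one: 110 of the 113 genes with 25 or more regions (97.3%), 74.4% of those with 7 or more and 64.3% of those with 5 or more. Zic4 was one of the 3 exceptions, with Igsf21 (34 regions in a 219.9 kb gene) and Trpm3 (29 regions, 856.4 kb), and these names were chosen after their values were seen. The place of Zic4 in this class depends on the settings. By nearest TSS its 25 regions became 18 with basic transcripts and 13 with start sites of any biotype. At a −log10 q of at least 5 they became 15. Among the 683 genes with 10 to 24 regions, 82.0% had a common region. Without NfiX CD1, 1 Zic4 region was common to the remaining libraries, and the share of genes with such a region is not given here.

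**Figure D5:**
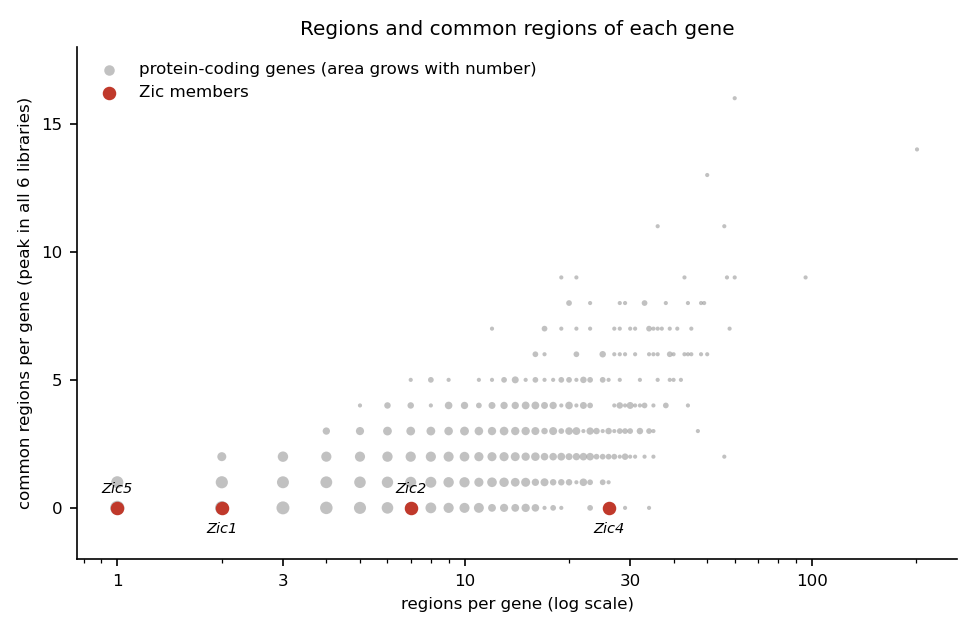
Regions per gene (horizontal axis, log scale) against common regions per gene (vertical axis) for protein-coding genes with at least 1 region. Grey points are genes, with larger points for more genes at the same place, and red points are the Zic members, which lie at 0 common regions with 1, 2, 7 and 26 regions.

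By library, all 4 members had a region with an NfiB peak in Mixed and in CD1, where 40.3% and 41.3% of genes did. With NfiA, 3 members had one in Mixed (33.1% of genes) and 1 in CD1 (25.7%). For NfiX the counts were 2 in Mixed (30.2% of genes) and 1 in CD1 (15.1%).

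Counts for related factors and for factors of the same cells stood beside these. GLI-type relatives, which share the zinc finger fold, had a region at 6 of 6 genes and a common region at 4, beside 47.5% and 12.9% of all genes. Those 4 genes are 200 to 421 kb long, and the others 12.1 and 30.2 kb. The Zic members are 4.42 to 26.9 kb long, and the part of gene length was not tested. Among the GLI-type relatives, Gli2 and Gli3, transducers of hedgehog signals, had 2 common regions each of 23 and 7, and Glis3 had 3 of 15. Gli1, a target and effector of the pathway, had 1 region, with an NfiB CD1 peak alone. Among 18 granule lineage transcription factors, 18 had a region and 7 had a common one. Pax6, a regulator of granule cell development, had 22 regions with 2 common, and Neurod1, a bHLH factor of granule neuron differentiation, had 9 with 1 common. Atoh1, which specifies the lineage, had 5 regions and none common. Zbtb18 had the most regions of the listed genes without a common one, 14. Its body held 4.75 regions per 10 kb, near the 4.83 of Zic4. Body density was higher in Neurod1, at 11.8 per 10 kb, and lower in Pax6 (2.81) and Atoh1 (0). Some unnamed genes of the granule list were also denser than Zic4, so this density is not particular to it. NfiB peaks alone formed 16 of the 22 regions of Pax6, 4 of 5 of Atoh1, 7 of 14 of Zbtb18 and 2 of 9 of Neurod1. For Gli2, Gli3 and Glis3 they formed 7 of 23, 2 of 7 and 4 of 15. Median fold percentiles were 40.6 over 146 peaks of the GLI-type list and 34.3 over 331 peaks of the granule list, beside 17.2 for Zic. Background percentiles were close, at 68.6, 67.2 and 67.1.

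The genes most like each member were taken as those whose highest fold percentile in each of the 6 libraries lay nearest by Euclidean distance. For Zic1 they were Pdcd6ip, Ccdc12 and Cep250 (distances 6.42 to 7.295 percentile points), and for Zic2 they were Cdkn1b, Thpo and Pnliprp2 (1.399 to 2.195). Zic5 was nearest to Zfp687, Gdi2 and Nipbl (5.23 to 8.21). Zic4 had the least similar partners, Fam135b, Ap1s3 and Filip1 (15.2 to 22.4).

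The farthest Zic region lay 73.96 kb out, well short of the limit of 100 kb, and on chromosome 9 there was no other region within 100 kb of the members. On chromosome 14 several regions fell just outside the rule. The region nearest to Zic5 that was given to another gene lay 1.37 kb from its 3′ end (122455096 to 122455567), with folds of 4.42 to 5.84 in NfiA CD1, NfiB Mixed and NfiB CD1, and was nearest to Gm5089. One 4.87 kb away (122451681 to 122452177) had folds of 3.83 to 8.47 in both NfiA and both NfiB libraries. On the Zic2 side, a region 10.02 kb beyond the gene (122488852 to 122490190) was nearest to Gm10837 and had peaks in 4 libraries with folds of 3.86 to 6.53. A further group lay within 100 kb of Zic5 and was also nearest to Gm5089, and its region at 122384509 to 122385270 reached a fold of 12.6. None of these had peaks in all 6 libraries.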

How the data were processed

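ChIP-seq peak lists of 6 libraries were analysed. Per the submitters' processing notes, Bowtie2 2.2.6, SAMtools 1.4.1 and MACS2 2.1.0 were used with mm10. What filters, peak threshold or input control they chose was not given in the sources used here. A peak list per library was deposited by the authors, with fold (ratio of summit to local background) and a −log10 p-value and −log10 q-value, used only to describe, rank or filter within a list. Lists held 7497 to 36431 peaks.

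Summit fragments n and local background b were computed so that (n + 1)/(b + 1) gave the deposited fold and the Poisson upper tail the deposited p. A match within 0.002 on the −log10 scale was found for 100% of peaks, and for 0.5 to 1.6% after random shifts of p. Genes were from GENCODE M21, on the build of the lists. Merging, assignment and recovery were tested on simulated data. Regions were called common with a peak in all 6 libraries. Tools were Python 3.11.15, pandas 2.3.3, SciPy 1.17.1 and bedtools 2.31.1.

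Members and lists were chosen with earlier results of these data known. Named genes were the members, their neighbours, 2 fixed lists with at most 4 genes named each, and the 3 most alike genes per member. Igsf21 and Trpm3 were named outside this rule, after their values were seen. The summit of highest fold percentile gave a region's position. The alternatives were a stricter q-value, equal list lengths, another overlap, other start sites and distances, and each library left out. Since no genome sequence was used, motifs were searched in promoters and exons alone, and summit spacing at common Zic regions had no values because there were none.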

Additional observations from a re-analysis of the deposited data

How the results depend on the processing

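The 34 Zic regions fell to 22 when a −log10 q of at least 5 was required, to 20 with start sites of any biotype, and to 1 with 7497 peaks per list, where fewer peaks or nearer noncoding starts remove them by construction. With 1 library left out they ranged from 25 to 34, and the 7 Zic2 regions fell to 3 without NfiB CD1. Common Zic regions ranged from 0 to 1 with 1 library left out, the 1 appearing without NfiX CD1 (the Zic4 intron region), and were 0 under the other alternatives. The mean difference Mixed minus CD1 was 4 and reversed to −0.333 at 7497 peaks per list (exact permutation p = 1), a value set by 1 NfiX CD1 peak kept by construction, and did not pass under any alternative run. With 1 library left out it ranged from 2 to 6. The median fold percentile of 17.2 ranged from 16.3 to 18.3 with 1 library left out and was 27.7 by −log10 q and 40.8 by summit fragments. The ranking by fragments and the basic transcript set were added after seeing the data. The palindrome count of 0 was the same over whole peaks and with 1 mismatch. The test of Mixed minus CD1 pairs the libraries by factor, and the labels carry no replicate numbers for another pairing. Weak peaks near the threshold limit statements on absence: a missing peak shows that none was called.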
